A study of Mus musculus with 9 samples.

Results

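The 41 genes described here encode the ESCRT machinery, its partners, the galectins and the phosphoinositide factors that seal or mark damaged lysosomes. They were taken from a list of symbols that was drawn up with earlier results of these data known. No measured value served as a criterion. They were matched by symbol to the gene identifiers of the deposited tables, where they are 41 of 55487 genes. Of these, 40 had enough reads to be tested, beside 13453 tested genes in all, and Vps25 had too few. The measurements are RNA-seq read counts from J774A.1, a mouse macrophage-like cell line. The study asked how gene expression differs when Slc12a9, a member of the cation-chloride cotransporter family, is targeted by CRISPR guides. All cells, controls included, had been grown with 10% serum and glutamine and were then held for 6 h without serum and glutamine before RNA was taken.

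The 9 libraries fall into 3 groups of 3. The controls carry a safe sgRNA, a control guide, and are labelled wild type. The libraries labelled with Slc12a9 sgRNA 11 and those labelled with sgRNA 15 carry the genotype label knockdown, while the design text of the series speaks of knockout cells. Whether each guide was a pool of cells or 1 clone, and whether the replicates were separate cultures, is not given in the sources used here, so a p-value here covers just the spread among the libraries at hand. Both comparisons with safe sgRNA use the same 3 control libraries, and their values are therefore given side by side.

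Gene counts ran from 16405296 to 25613961 per library, and 79.3 to 80.7% of the reads in each table were assigned to genes. Slc12a9 itself stood at 44.8 to 53.5 CPM (library-size-scaled read counts) with safe sgRNA, 62.6 to 67.0 CPM with sgRNA 11 and 48.2 to 51.7 CPM with sgRNA 15. Its mRNA was thus higher with sgRNA 11 (log2 0.43, edgeR adjusted p = 6.45e-13) and did not pass with sgRNA 15 (0.05, edgeR adjusted p = 0.426), so the mRNA level does not show the targeting that the labels name. The 10 macrophage markers examined were all expressed, and their summed level was 6065 to 6221 CPM with safe sgRNA, 9519 to 9824 CPM with sgRNA 11 and 7844 to 7915 CPM with sgRNA 15. Most of that rise was Lyz2, which encodes lysozyme and went from a mean of 1727 CPM to 4513 and 3567 CPM. With sgRNA 11, 8 of the 10 markers rose and 2 fell, Cd14 (892 to 569 CPM) and Cd68 (453 to 402 CPM). With sgRNA 15, 6 rose, Csf1r did not pass and 3 fell, Cd14 (to 647 CPM), Fcgr1 (86.7 to 68.3 CPM) and Spi1 (526 to 491 CPM). Itgam, which rose with both guides, is uncertain, since 68.7% of its exon length is shared with Gm49368 on the same strand. Csf1r is uncertain too, since 15.1% of its exon length lies opposite Hmgxb3. Epithelial, T cell and B cell markers summed to at most 0.317 CPM in any library, and fibroblast, endothelial and neutrophil markers to at most 4.09 CPM. Mitochondrial genes took 1.63 to 1.76%, 1.43 to 1.53% and 1.59 to 1.61% of the counts in the same order of groups. The part of the macrophage markers and the mitochondrial share in the results below was not tested.

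ESCRT complexes act in sequence on membranes. ESCRT-0 and ESCRT-I bind ubiquitin-tagged cargo, ESCRT-II bridges to ESCRT-III, and ESCRT-III filaments constrict and cut membrane necks before the ATPase VPS4 takes them apart. The same filaments are recruited to small holes in lysosomes, where ALIX and its calcium-binding partner ALG-2 help to bring them in. Galectins are cytosolic lectins that bind sugars exposed on the inner face of a torn lysosome and so mark it, and a parallel repair route makes the lipid PI4P on the lysosome and draws in lipid-transfer proteins of the ORP family.

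Promoter sequence was available from RefSeq (GRCm38.p6) for 31 of the 41 genes, in 34 windows from 250 bases before to 50 bases after a start. CACGTG, the core of the element bound by the lysosomal regulators TFEB and TFE3, was found in 1 of the 34 windows (2.94%) and in 7.15% of all 32851 promoter windows. TGATGNAA, with its reverse complement TTNCATCA, is a form of the amino acid response element bound by ATF4, and it was found in 0 of the 34 windows and in 3.97% of all windows. Both motifs were searched on both strands, and they can overlap each other by a pair of bases. The window with a match belongs to Pdcd6ip, which encodes ALIX, and the match lies 38 bases before its start. The stretches below are shown because Pdcd6ip holds that match, printed in capitals, and because Lgals3, Lgals8, Lgals9 and Osbpl9 had the highest log2 fold changes of the 40 tested genes with sgRNA 15. Their windows hold neither motif. Each stretch is 120 bases and reads 5′ to 3′ on the strand of the gene. It ends before the first base of the annotated transcripts that run into its window, and Osbpl9 has a pair of starts. The stretches of Lgals3, of Lgals8 and of the second Osbpl9 start lie within the spans of their genes, which begin further upstream.
Pdcd6ip, chr9:113708260-113708379, minus strand: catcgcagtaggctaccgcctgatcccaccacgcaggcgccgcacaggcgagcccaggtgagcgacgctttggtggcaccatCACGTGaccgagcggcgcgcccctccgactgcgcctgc
Lgals3, chr14:47373693-47373812, plus strand: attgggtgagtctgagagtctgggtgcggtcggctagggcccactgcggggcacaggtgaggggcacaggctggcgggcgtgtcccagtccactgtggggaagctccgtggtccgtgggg
Lgals8, chr13:12461788-12461907, minus strand: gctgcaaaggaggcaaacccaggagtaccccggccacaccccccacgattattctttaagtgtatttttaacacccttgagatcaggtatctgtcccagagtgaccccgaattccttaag
Lgals9, chr11:78984947-78985066, minus strand: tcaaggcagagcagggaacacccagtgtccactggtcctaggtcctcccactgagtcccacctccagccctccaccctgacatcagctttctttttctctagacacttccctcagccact
Osbpl9, chr4:109202273-109202392, minus strand: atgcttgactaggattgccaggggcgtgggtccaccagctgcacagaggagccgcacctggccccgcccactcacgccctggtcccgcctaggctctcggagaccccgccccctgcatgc
Osbpl9, second start, chr4:109118037-109118156, minus strand: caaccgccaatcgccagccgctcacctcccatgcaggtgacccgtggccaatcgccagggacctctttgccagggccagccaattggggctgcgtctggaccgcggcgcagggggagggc
A match or its absence says only whether these letters occur in the window.

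With sgRNA 11, 14 of the 40 tested genes rose and 8 fell against safe sgRNA at an edgeR adjusted p under 0.05, and 18 did not pass. Over all genes tested, 65.8% passed in that comparison, 33.3% higher and 32.4% lower, so the 55% of these genes that passed lies below the share of all genes. With sgRNA 15, 18 rose, 5 fell and 17 did not pass, which is 57.5% beside 62.9% of all genes (32.2% higher and 30.7% lower). The differences were small. The median size of the log2 fold change, whatever its sign, was 0.14 with sgRNA 11 and 0.13 with sgRNA 15, beside 0.32 and 0.29 over all genes tested. Among the 9784 tested genes with a mean of at least 5 CPM, a level that all 40 of these genes reach, those medians were 0.29 and 0.25. In that set of 9784, 76.6% passed with sgRNA 11 and 73.2% with sgRNA 15. Of the 40 genes, Osbpl10 with sgRNA 11 alone passed with a log2 change of 1 or more in size. Such changes passed for 8.36% of all genes tested with sgRNA 11 and 6.99% with sgRNA 15. In the set with at least 5 CPM, these shares were 4.56% and 3.24%.

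Judged by the libraries alone, the 3 sgRNA 11 libraries all lay above the 3 safe libraries for 13 of the genes and all below for 10, beside 34.3% and 33.3% of all genes tested. For sgRNA 15 these numbers were 20 and 4 genes, beside 33.5% and 32.3%.

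The signed median was 0.02 with sgRNA 11 and turned to -0.01 when GC content and exon length were corrected for and to -0.0032 without safe replicate 3. With sgRNA 15 it was 0.10, and it was 0.06 without safe replicate 3 or without sgRNA 15 replicate 2. Over all genes tested the signed median was 0.01 in both comparisons. Of the 31 tested genes of the ESCRT complexes, VPS4, ALIX, their adaptors and deubiquitinases, 9 rose and 6 fell with sgRNA 11, and 13 rose and 3 fell with sgRNA 15. Of the 9 galectin, galectin-partner and phosphoinositide genes, 5 rose and 2 fell with each guide. The shares of all genes that passed (65.8 and 62.9%) lie between those of the 2 groups, and the difference between the groups was not tested.

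**Figure D1:**
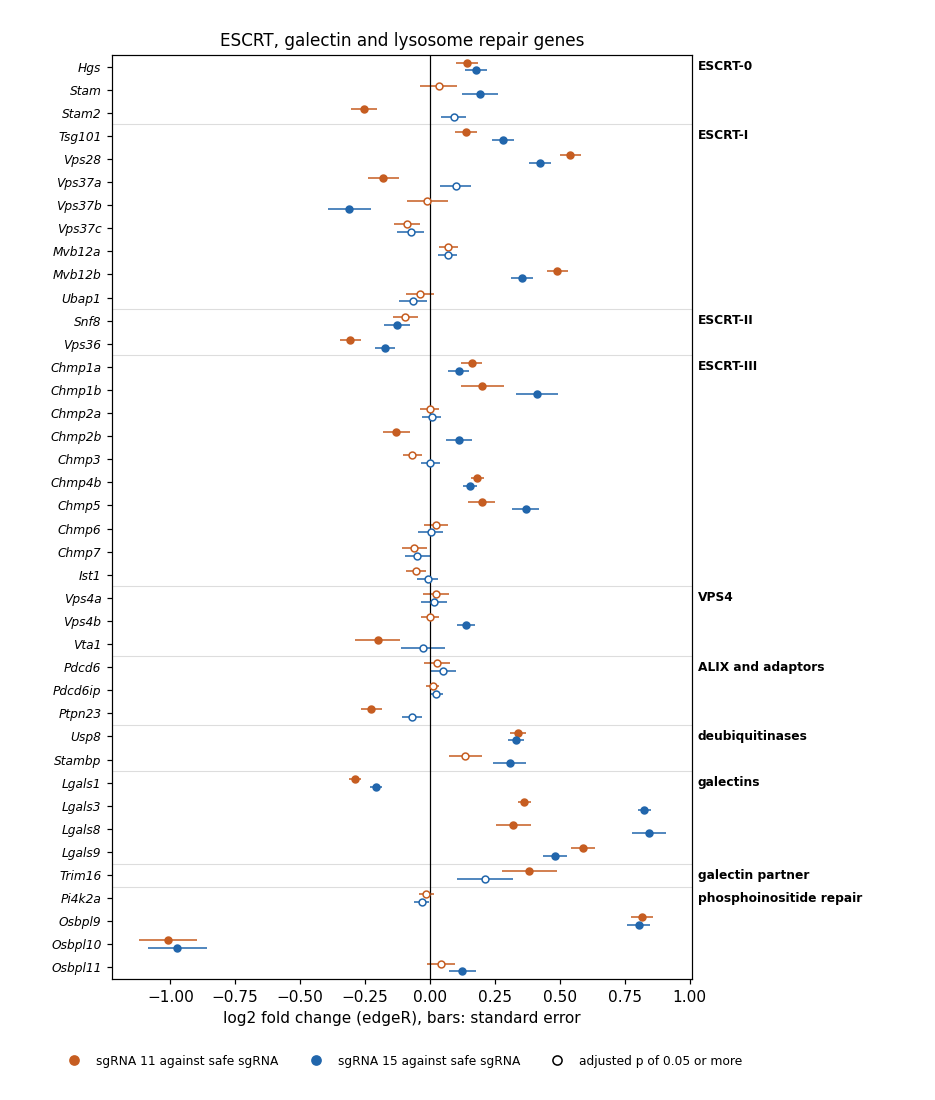
Log2 fold change of each tested gene against safe sgRNA, with sgRNA 11 in orange and sgRNA 15 in blue, grouped by role from top to bottom. Bars are standard errors and open points did not pass an adjusted p of 0.05. The farthest out are Osbpl9 (0.82 and 0.80), Osbpl10 (-1.01 and -0.97), Lgals3 (0.36 and 0.83), Lgals8 (0.32 and 0.84) and, with smaller values, Lgals9 (0.59 and 0.48) and Vps28 (0.54 and 0.42).

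The levels of the genes can be compared once each is divided by the length of its exons. In the safe libraries, the galectin gene Lgals1 led with 963 ± 11.4 CPM per kilobase of exon (SD, n = 3), followed by Lgals3 at 257 ± 4.10 and by the ESCRT-III genes Chmp4b at 129 ± 4.002 and Chmp2a at 85.3 ± 2.78. Pdcd6ip came next at 47.3 ± 0.758 CPM per kilobase. These 5 levels were separated by more than their SDs. Further down, neighbours ran together: from Chmp5, ranked 10th, to Snf8, ranked 19th, the level per kilobase went only from 25.7 ± 0.701 to 19.7 ± 0.997 CPM. Osbpl10 (2.21 ± 0.0649) and Trim16 (1.68 ± 0.0683) closed the order. The median level of the 40 genes over all libraries was 17.6 CPM per kilobase, beside 5.67 over all genes tested. Among the tested genes with a mean of at least 5 CPM, a level that all 40 reach, the median was 9.83.

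All 4 galectin genes passed the test with both guides. Lgals3, Lgals8 and Lgals9 rose with both guides, and Lgals1 fell with both. Lgals3 and Lgals8 were higher with sgRNA 15 than with sgRNA 11 as well. In a culture measured in bulk, fewer cells of one kind and less RNA per cell cannot be told apart.

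Lgals3 encodes galectin-3, which gathers on torn lysosomes and is the usual marker of such damage. It lies on chromosome 14 (ENSMUSG00000050335, chr14:47367751-47386160, plus strand, mm10). The safe libraries had 470, 483 and 482 CPM, the sgRNA 11 libraries 614, 626 and 606 CPM, and the sgRNA 15 libraries 832, 824 and 888 CPM. The 3 groups did not overlap, and they stood in the order safe sgRNA, sgRNA 11, sgRNA 15. The log2 fold change against safe sgRNA was 0.36 ± 0.02 (SE) with sgRNA 11 (edgeR adjusted p = 5.24e-24) and 0.83 ± 0.02 with sgRNA 15 (edgeR adjusted p = 9.23e-48), and sgRNA 15 exceeded sgRNA 11 by 0.46 ± 0.02 (edgeR adjusted p = 6.37e-30).

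Lgals8 encodes galectin-8, which recognises damaged vesicles and links them to autophagy receptors (ENSMUSG00000057554, chr13:12439415-12464944, minus strand). Its libraries had 20.4, 20.6 and 18.4 CPM with safe sgRNA, 23.4, 25.05 and 26.0 CPM with sgRNA 11, and 34.6, 35.9 and 36.3 CPM with sgRNA 15. Again no group overlapped another. Lgals8 rose by 0.32 ± 0.07 on the log2 scale with sgRNA 11 (edgeR adjusted p = 2.42e-05) and 0.84 ± 0.07 with sgRNA 15 (edgeR adjusted p = 2.04e-20), and the guides differed by 0.52 ± 0.06 (edgeR adjusted p = 4.44e-11).

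Lgals9 encodes galectin-9, a lectin that also acts in immune signalling (ENSMUSG00000001123, chr11:78962974-78984946, minus strand). It had 45.8, 49.0 and 48.0 CPM with safe sgRNA, 72.0, 70.6 and 71.8 CPM with sgRNA 11, and 68.5, 66.0 and 64.3 CPM with sgRNA 15. All guide libraries lay above all safe libraries. The rise was 0.59 ± 0.04 on the log2 scale with sgRNA 11 (edgeR adjusted p = 5.55e-21) and 0.48 ± 0.05 with sgRNA 15 (edgeR adjusted p = 3.15e-16).

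Lgals1 encodes galectin-1, a small secreted and cytosolic lectin (ENSMUSG00000068220, chr15:78926725-78930465, plus strand). Its level was 868, 861 and 881 CPM with safe sgRNA, 691, 704 and 742 CPM with sgRNA 11, and 756, 749 and 757 CPM with sgRNA 15. The safe libraries were the highest and the groups did not overlap. Its log2 fold change was -0.29 ± 0.02 with sgRNA 11 (edgeR adjusted p = 1.06e-19) and -0.21 ± 0.02 with sgRNA 15 (edgeR adjusted p = 5.64e-13).

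The make-up of the galectin transcripts shifted accordingly. Per exon length, Lgals1 made up 77.2 ± 0.361% (SD, n = 3) of the 4 galectins' summed level in the controls, and 68.0 ± 1.001% and 62.7 ± 0.746% with sgRNA 11 and sgRNA 15. Lgals3 made up 20.6 ± 0.292%, 28.6 ± 0.964% and 34.3 ± 0.840% in the same order. Lgals9 went from 1.78% to 2.88% and 2.33%, and Lgals8 from 0.430% to 0.580% and 0.725%. Shares of a fixed sum move together, so these are 1 description of the 4 levels above and not a further test.

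**Figure D2:**
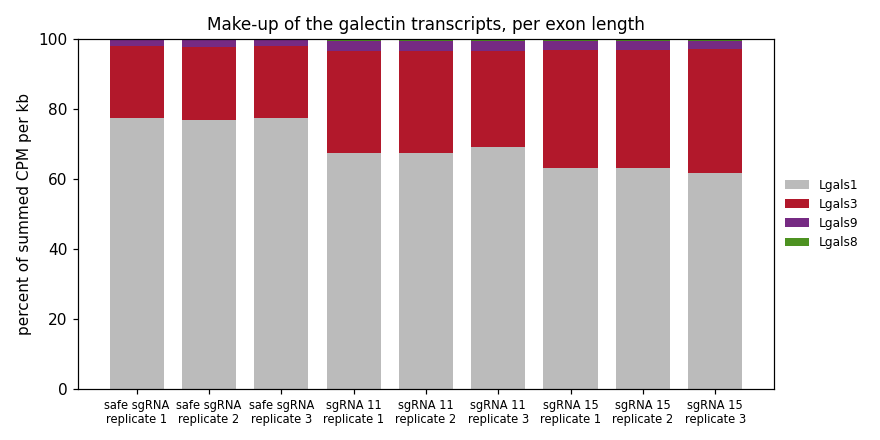
Share of each galectin in the summed CPM per kilobase of the 4 galectin genes, in percent, with 1 bar per library. The share of Lgals1 lies between 76.8 and 77.5% in the safe libraries, between 67.4 and 69.1% with sgRNA 11 and between 61.8 and 63.1% with sgRNA 15, and Lgals3 fills most of the remainder.

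Trim16 encodes a ubiquitin ligase that binds galectin-3 at damaged lysosomes. It had 8.03, 7.53 and 7.45 CPM with safe sgRNA, 11.0, 9.60 and 9.42 CPM with sgRNA 11, and 9.51, 8.75 and 8.41 CPM with sgRNA 15. Every guide library lay above the safe libraries. The rise passed the test with sgRNA 11 (log2 0.38 ± 0.11, edgeR adjusted p = 0.00114), while the value with sgRNA 15 was 0.21 ± 0.11 (edgeR adjusted p = 0.0846), or 0.25 with scaling by library size only, where it passed (edgeR adjusted p = 0.0392). The difference between the guides did not pass (-0.17 ± 0.10, edgeR adjusted p = 0.22).

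The phosphoinositide genes split. Osbpl9 rose and Osbpl10 fell with both guides, by close values, whereas the kinase gene Pi4k2a did not pass with either guide. Osbpl9 encodes ORP9, a lipid-transfer protein recruited by PI4P to damaged lysosomes (ENSMUSG00000028559, chr4:109061145-109202272, minus strand). It had 48.7, 51.3 and 47.4 CPM with safe sgRNA, 87.3, 84.4 and 88.1 CPM with sgRNA 11, and 85.0, 88.0 and 83.9 CPM with sgRNA 15. The guide libraries overlapped each other and stood clear of the safe libraries. The log2 fold change was 0.82 ± 0.04 (edgeR adjusted p = 7.2e-31) and 0.80 ± 0.04 (edgeR adjusted p = 3.88e-30), with a difference between guides of -0.01 ± 0.04 (edgeR adjusted p = 0.825).

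Osbpl10 encodes ORP10, which pairs with ORP9 (ENSMUSG00000040875, chr9:114978569-115232225, plus strand). It had 11.1, 11.7 and 11.3 CPM with safe sgRNA, 6.03, 5.36 and 5.48 CPM with sgRNA 11, and 6.08, 6.14 and 4.96 CPM with sgRNA 15. All 6 guide libraries lay below the safe libraries. The log2 fold change was -1.01 ± 0.11 with sgRNA 11 (edgeR adjusted p = 4.83e-13) and -0.97 ± 0.11 with sgRNA 15 (edgeR adjusted p = 2.45e-12). In the order of levels per kilobase, Osbpl9 exceeded Osbpl10 in each group, with 7.01 ± 0.280 against 2.21 ± 0.0649 CPM in the safe libraries and 12.4 ± 0.282 against 1.09 ± 0.0696 with sgRNA 11.

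Osbpl11 encodes ORP11, a further partner of ORP9. It had 40.8, 36.5 and 38.6 CPM with safe sgRNA, 41.1, 38.3 and 40.1 CPM with sgRNA 11, and 41.6, 42.7 and 42.4 CPM with sgRNA 15. Only the sgRNA 15 libraries stood clear of the safe ones. The value with sgRNA 11 was 0.04 ± 0.05 (edgeR adjusted p = 0.496) and that with sgRNA 15 passed at 0.12 ± 0.05 (edgeR adjusted p = 0.0342). That call was lost without safe replicate 2 (0.07, edgeR adjusted p = 0.291), safe replicate 3 (0.11, edgeR adjusted p = 0.106), sgRNA 11 replicate 3 (0.11, edgeR adjusted p = 0.0625), sgRNA 15 replicate 2 (0.11, edgeR adjusted p = 0.113) or sgRNA 15 replicate 3 (0.11, edgeR adjusted p = 0.104). It was kept in 9 of 18 alternatives, and the others in which it was lost include the GC content and length correction (0.09, edgeR adjusted p = 0.115) and DESeq2 (0.12, DESeq2 adjusted p = 0.0983).

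Pi4k2a encodes the kinase that makes PI4P on damaged lysosomes. Its levels were 163, 167 and 166 CPM with safe sgRNA, 158, 165 and 168 CPM with sgRNA 11, and 159, 162 and 164 CPM with sgRNA 15. The groups overlapped. Its log2 values were -0.01 ± 0.03 (edgeR adjusted p = 0.688) and -0.03 ± 0.03 (edgeR adjusted p = 0.354), and both took the other sign when libraries were scaled by size only (0.02 and 0.0059). With the GC content and length correction it passed as lower with both (-0.09, edgeR adjusted p = 0.00197, and -0.07, edgeR adjusted p = 0.0139).

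**Figure D3:**
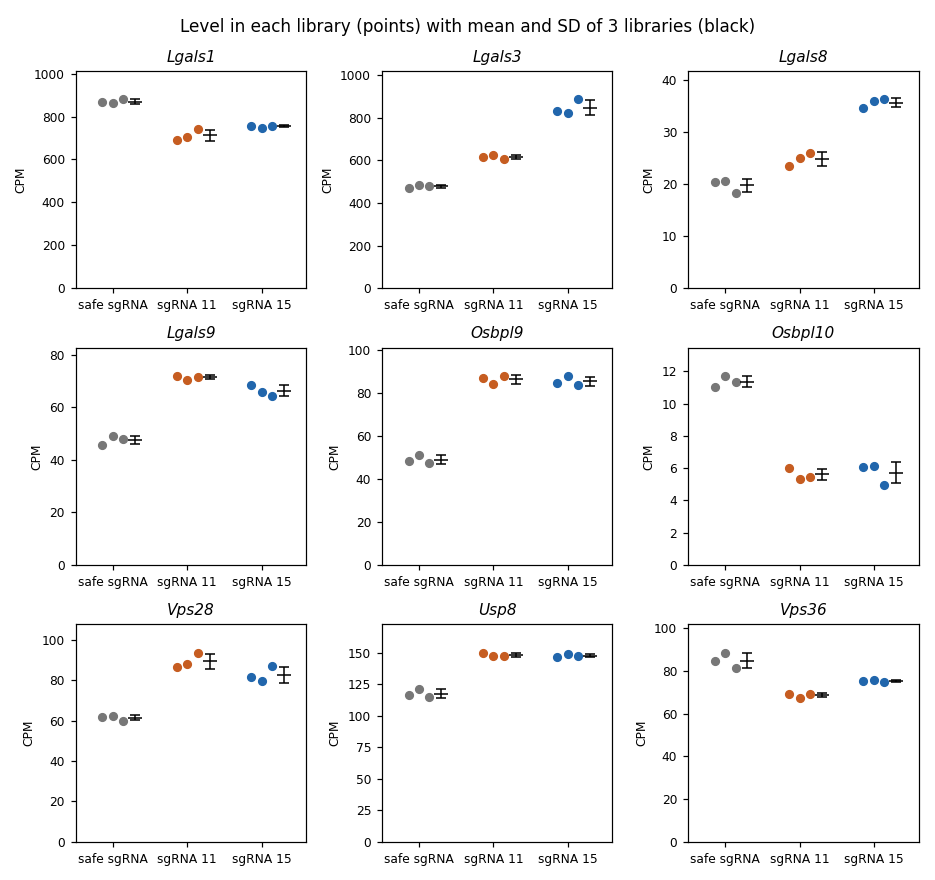
Level in CPM in each library for 9 genes, from 0, with safe sgRNA in grey, sgRNA 11 in orange and sgRNA 15 in blue; black bars give the mean and SD of 3 libraries. Lgals3, Lgals8, Lgals9, Osbpl9, Vps28 and Usp8 lie above the safe libraries with both guides, and Lgals1, Osbpl10 and Vps36 lie below.

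ESCRT-I held the largest rises of the ESCRT machinery with sgRNA 11, and with sgRNA 15 the ESCRT-III genes Chmp1b and Chmp5, described further on, reached similar values. Of the 8 tested ESCRT-I genes, 3 rose and 1 fell with each guide. That is 50% with each guide, beside 65.8% of all genes tested with sgRNA 11 and 62.9% with sgRNA 15. Vps28, a core subunit that contacts ESCRT-II, and Mvb12b, an accessory subunit, rose with both guides, and so did Tsg101, the subunit that binds ubiquitin and viral late domains.

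Vps28 (ENSMUSG00000115987, chr15:76622087-76626086, minus strand) had 62.0, 62.4 and 60.0 CPM with safe sgRNA, 86.5, 88.1 and 93.6 CPM with sgRNA 11, and 81.5, 79.6 and 87.0 CPM with sgRNA 15. All guide libraries lay above the safe libraries. Vps28 rose by 0.54 ± 0.04 on the log2 scale (edgeR adjusted p = 9.62e-21) and by 0.42 ± 0.04 (edgeR adjusted p = 3.64e-15). Mvb12b (ENSMUSG00000038740, chr2:33729953-33887946, minus strand) had 62.6, 64.7 and 64.9 CPM with safe sgRNA, 91.1, 91.0 and 87.9 CPM with sgRNA 11, and 85.4, 76.0 and 84.5 CPM with sgRNA 15. Its groups did not overlap, and its log2 fold change was 0.49 ± 0.04 (edgeR adjusted p = 1.44e-18) and 0.35 ± 0.04 (edgeR adjusted p = 5.72e-12).

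Mvb12a, the paralog of Mvb12b and the ESCRT-I gene with the highest level per kilobase, had 90.9, 95.3 and 92.6 CPM with safe sgRNA, 97.5, 94.0 and 101 CPM with sgRNA 11, and 98.4, 97.5 and 96.1 CPM with sgRNA 15. It did not pass with either guide (0.07 ± 0.04, edgeR adjusted p = 0.0831, and 0.07 ± 0.04, edgeR adjusted p = 0.0979), and the value with sgRNA 11 turned to -0.05 with the GC content and length correction. It passed as higher with both guides when libraries were scaled by size only (0.10, edgeR adjusted p = 0.00968, and 0.11, edgeR adjusted p = 0.00825) and at a minimum mean of 5 CPM (edgeR adjusted p = 0.0142 and 0.0418), and with sgRNA 11 without sgRNA 11 replicate 2 (edgeR adjusted p = 0.033). Tsg101 rose by a log2 fold change of 0.14 ± 0.04 with sgRNA 11 (edgeR adjusted p = 0.00371) and 0.28 ± 0.04 with sgRNA 15 (edgeR adjusted p = 1.99e-08). The first of these calls was lost without sgRNA 11 replicate 3 (0.10, edgeR adjusted p = 0.0702).

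The VPS37 subunits, which lend ESCRT-I its variants, differed among themselves. Vps37b had 18.1, 18.5 and 18.4 CPM with safe sgRNA, 17.7, 16.4 and 20.3 CPM with sgRNA 11, and 13.9, 15.9 and 14.5 CPM with sgRNA 15. It passed only with sgRNA 15 (-0.31 ± 0.08, edgeR adjusted p = 0.00069), and its value with sgRNA 11 (-0.01 ± 0.08, edgeR adjusted p = 0.914) took the other sign with scaling by library size only (0.02). Vps37b is uncertain, since 42.5% of its exon length is shared with Hip1r on the opposite strand and the strand setting of the counts is not given. Vps37a fell with sgRNA 11 (-0.18 ± 0.06, edgeR adjusted p = 0.00723) and did not pass with sgRNA 15 (0.10 ± 0.06, edgeR adjusted p = 0.139), where the GC content and length correction and scaling by library size only each gave a rise that passed (0.14, edgeR adjusted p = 0.0351 and 0.0368). Its call with sgRNA 11 was lost without safe replicate 1 (-0.14, edgeR adjusted p = 0.0785), without sgRNA 11 replicate 1 (-0.14, edgeR adjusted p = 0.0792) and with the GC content and length correction (-0.04, edgeR adjusted p = 0.607). Vps37c and Ubap1 passed with neither guide, with log2 values from -0.09 to -0.04.

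ESCRT-0, the complex that first collects ubiquitinated cargo on endosomes, showed small shifts. Hgs, its membrane-binding subunit, had 70.2, 70.3 and 69.8 CPM with safe sgRNA, 74.3, 77.5 and 80.5 CPM with sgRNA 11, and 76.5, 81.5 and 79.8 CPM with sgRNA 15. All guide libraries lay above the safe libraries. Hgs rose by 0.14 ± 0.04 with sgRNA 11 (edgeR adjusted p = 0.00157) and 0.18 ± 0.04 with sgRNA 15 (edgeR adjusted p = 0.000109), and the first call was lost with the GC content and length correction (0.02, edgeR adjusted p = 0.705).

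Stam2, 1 of the pair of adaptor subunits, had 52.7, 55.1 and 51.1 CPM with safe sgRNA, 45.9, 43.1 and 44.0 CPM with sgRNA 11, and 54.8, 58.5 and 55.6 CPM with sgRNA 15. Its sgRNA 11 libraries lay below all others. It fell with sgRNA 11 (-0.25 ± 0.05, edgeR adjusted p = 3.24e-06), did not pass with sgRNA 15 (0.09 ± 0.05, edgeR adjusted p = 0.0859), and differed between the guides by 0.35 ± 0.05 (edgeR adjusted p = 5.15e-09). Stam, the other adaptor, had 21.1, 22.6 and 19.2 CPM with safe sgRNA, 21.3, 21.3 and 21.8 CPM with sgRNA 11, and 24.0, 25.02 and 22.7 CPM with sgRNA 15. Its value with sgRNA 11 was 0.03 ± 0.07 (edgeR adjusted p = 0.692), and it rose with sgRNA 15 by 0.19 ± 0.07 (edgeR adjusted p = 0.0143). The call with sgRNA 15 was lost without safe replicate 3 (0.12, edgeR adjusted p = 0.164) and without sgRNA 15 replicate 2 (0.15, edgeR adjusted p = 0.105). With the GC content and length correction Stam passed with sgRNA 11 too (0.18, edgeR adjusted p = 0.0244), and Stam2 passed as higher with sgRNA 15 (0.11, edgeR adjusted p = 0.029). Stam2 with sgRNA 15 also passed with scaling by library size only (0.13, edgeR adjusted p = 0.0133) and at a minimum mean of 5 CPM (0.10, edgeR adjusted p = 0.0435).

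ESCRT-II held no rise. Vps36, its ubiquitin- and lipid-binding subunit (ENSMUSG00000031479, chr8:22192809-22220843, plus strand), had 84.8, 88.5 and 81.2 CPM with safe sgRNA, 69.1, 67.5 and 69.2 CPM with sgRNA 11, and 75.3, 75.7 and 74.7 CPM with sgRNA 15. The groups did not overlap, with the safe libraries highest. Vps36 fell by 0.31 ± 0.04 on the log2 scale with sgRNA 11 (edgeR adjusted p = 1.66e-10) and by 0.17 ± 0.04 with sgRNA 15 (edgeR adjusted p = 9.91e-05). Snf8, which pairs with Vps36, had 49.6, 54.5 and 53.8 CPM with safe sgRNA, 49.2, 49.2 and 49.1 CPM with sgRNA 11, and 51.3, 44.5 and 49.0 CPM with sgRNA 15. Its value with sgRNA 11 was -0.09 ± 0.05 (edgeR adjusted p = 0.0861), and it passed without safe replicate 1 (-0.14, edgeR adjusted p = 0.0245). With sgRNA 15 it fell by 0.13 ± 0.05 (edgeR adjusted p = 0.024), a call lost without safe replicate 2 (-0.11, edgeR adjusted p = 0.0778), without sgRNA 15 replicate 2 (-0.07, edgeR adjusted p = 0.268) and with scaling by library size only (-0.09, edgeR adjusted p = 0.122). Vps25, the third subunit, had 0 to 5 reads in each library and was not tested, and 67.2% of its exon length is shared with Ramp2 on the same strand.

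Among the 10 ESCRT-III genes, whose products form the cutting filament, 4 rose and 1 fell with sgRNA 11, and 5 rose with sgRNA 15. The share that passed was 50% with each guide, beside 65.8% and 62.9% of all genes tested. Chmp4b, the main filament subunit and the ESCRT gene with the highest level per kilobase (ENSMUSG00000038467, chr2:154651705-154694785, plus strand), had 255, 261 and 271 CPM with safe sgRNA, 292, 299 and 301 CPM with sgRNA 11, and 289, 285 and 301 CPM with sgRNA 15. The guide libraries lay above the safe libraries. It rose by 0.18 ± 0.03 (edgeR adjusted p = 3.81e-09) and 0.15 ± 0.03 (edgeR adjusted p = 5.17e-07).

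Chmp5, a regulatory subunit that binds the VPS4 cofactor, had 39.5, 39.7 and 37.8 CPM with safe sgRNA, 45.8, 42.1 and 46.3 CPM with sgRNA 11, and 49.4, 52.4 and 49.1 CPM with sgRNA 15. The 3 groups did not overlap. It rose by 0.20 ± 0.05 (edgeR adjusted p = 0.000481) and 0.37 ± 0.05 (edgeR adjusted p = 1.04e-09). Chmp1b, which co-assembles with IST1, had 16.6, 13.7 and 14.9 CPM with safe sgRNA, 19.6, 16.5 and 16.1 CPM with sgRNA 11, and 19.8, 20.4 and 20.3 CPM with sgRNA 15. It rose by 0.20 ± 0.08 (edgeR adjusted p = 0.0273) and 0.41 ± 0.08 (edgeR adjusted p = 7.22e-06). It is uncertain, because 24.0% of its exon length lies opposite another gene. Its call with sgRNA 11 was lost without safe replicate 2 (0.13, edgeR adjusted p = 0.228), safe replicate 3 (0.18, edgeR adjusted p = 0.0833) or sgRNA 11 replicate 1 (0.11, edgeR adjusted p = 0.303), and with DESeq2 (0.20, DESeq2 adjusted p = 0.0762).

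Chmp1a, a subunit that recruits VPS4, rose by 0.16 ± 0.04 with sgRNA 11 (edgeR adjusted p = 0.00031) and 0.11 ± 0.04 with sgRNA 15 (edgeR adjusted p = 0.0136). The first call was lost with the GC content and length correction (0.05, edgeR adjusted p = 0.267), and the second was lost there too (0.06, edgeR adjusted p = 0.169) and without safe replicate 2 (0.08, edgeR adjusted p = 0.128) or sgRNA 15 replicate 3 (0.09, edgeR adjusted p = 0.086), and with DESeq2 (0.10, DESeq2 adjusted p = 0.0557). Chmp2b, a late-acting subunit, fell with sgRNA 11 (-0.13 ± 0.05, edgeR adjusted p = 0.0219) and rose with sgRNA 15 (0.11 ± 0.05, edgeR adjusted p = 0.0471). The fall was lost without safe replicate 1 (-0.08, edgeR adjusted p = 0.217) or sgRNA 11 replicate 3 (-0.11, edgeR adjusted p = 0.0987), and with the GC content and length correction it was -0.02 (edgeR adjusted p = 0.683). It was also lost with scaling by library size only (-0.10, edgeR adjusted p = 0.0905), without the filter on low counts (-0.12, edgeR adjusted p = 0.06) and at a minimum mean of 5 CPM (-0.11, edgeR adjusted p = 0.0535). The rise was lost without any 1 of 7 libraries, all but safe replicate 1 and sgRNA 11 replicate 1, with log2 values from 0.07 to 0.12 in those fits and 0.262 as the highest edgeR adjusted p. It was lost as well with DESeq2 (DESeq2 adjusted p = 0.126), limma-voom (limma adjusted p = 0.0521), relative log expression scaling (edgeR adjusted p = 0.0701) and no filter (edgeR adjusted p = 0.101). Chmp2a, Chmp3, Chmp6, Chmp7 and Ist1 passed with neither guide, with log2 values from -0.07 to 0.02.

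The mRNA levels of the genes for the disassembly step showed small shifts. Vps4b, which encodes 1 of the pair of VPS4 ATPases, had 152, 140 and 136 CPM with safe sgRNA, 151, 136 and 141 CPM with sgRNA 11, and 156, 160 and 156 CPM with sgRNA 15. It rose with sgRNA 15 (0.14 ± 0.03, edgeR adjusted p = 0.000483). With sgRNA 11 its value was near 0 (edgeR adjusted p = 1), and it was 0.11 after the GC content and length correction, where it passed (edgeR adjusted p = 0.000734). Vps4a, the other ATPase gene, had 44.8, 46.5 and 42.8 CPM with safe sgRNA, 47.1, 44.1 and 44.9 CPM with sgRNA 11, and 45.9, 44.0 and 45.7 CPM with sgRNA 15, and it did not pass with either guide (0.02 ± 0.05 and 0.01 ± 0.05).

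Vta1, the VPS4 cofactor, had 15.7, 14.4 and 14.1 CPM with safe sgRNA, 12.7, 12.3 and 13.5 CPM with sgRNA 11, and 14.9, 13.7 and 15.1 CPM with sgRNA 15. It fell with sgRNA 11 (-0.20 ± 0.09, edgeR adjusted p = 0.0344), and its value with sgRNA 15 was -0.03 ± 0.09 (edgeR adjusted p = 0.805), or 0.01 when scaled by library size only. The call was lost without safe replicate 1 (-0.15, edgeR adjusted p = 0.184), sgRNA 11 replicate 1 (-0.18, edgeR adjusted p = 0.0994) or sgRNA 11 replicate 2 (-0.17, edgeR adjusted p = 0.107). It was also lost with the GC content and length correction (-0.14, edgeR adjusted p = 0.155), DESeq2 (DESeq2 adjusted p = 0.0629), scaling by library size only (edgeR adjusted p = 0.0755), no filter (edgeR adjusted p = 0.0836) and a minimum mean of 5 CPM (edgeR adjusted p = 0.0557), and so was kept in 10 of 18 alternatives. Vta1 is uncertain, since 13.5% of its exon length lies opposite Gm16234.

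Of the genes that bring ESCRT-III to membranes, Pdcd6ip (ALIX) had 321, 326 and 332 CPM with safe sgRNA, 331, 325 and 329 CPM with sgRNA 11, and 337, 332 and 326 CPM with sgRNA 15. The groups overlapped, and the log2 values were 0.01 ± 0.03 (edgeR adjusted p = 0.722) and 0.02 ± 0.03 (edgeR adjusted p = 0.416), the second of which turned to -0.01 with the GC content and length correction and passed at 0.06 with scaling by library size only (edgeR adjusted p = 0.0246). Pdcd6, which encodes ALG-2, did not pass (0.03 and 0.05). Ptpn23, an ALIX-related adaptor for endosomal sorting, had 84.6, 83.9 and 90.2 CPM with safe sgRNA, 74.4, 73.1 and 73.4 CPM with sgRNA 11, and 82.0, 85.9 and 77.8 CPM with sgRNA 15. Its sgRNA 11 libraries were the lowest of the 9. It fell with sgRNA 11 (-0.23 ± 0.04, edgeR adjusted p = 7.45e-07) and did not pass with sgRNA 15 (-0.07 ± 0.04, edgeR adjusted p = 0.126). With sgRNA 15 it passed as lower with the GC content and length correction (-0.13, edgeR adjusted p = 0.00287) and without safe replicate 2 (-0.10, edgeR adjusted p = 0.0459) or sgRNA 15 replicate 2 (-0.11, edgeR adjusted p = 0.0258).

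Both deubiquitinases that work with ESCRT-0 stood above control. Usp8 (ENSMUSG00000027363, chr2:126707328-126759297, plus strand) had 116, 122 and 115 CPM with safe sgRNA, 150, 148 and 148 CPM with sgRNA 11, and 147, 149 and 148 CPM with sgRNA 15. The 6 guide libraries lay close together and above the safe libraries. It rose by 0.34 ± 0.03 (edgeR adjusted p = 1.62e-16) and 0.33 ± 0.03 (edgeR adjusted p = 6.4e-16). Stambp, which encodes AMSH, had 23.3, 25.1 and 24.0 CPM with safe sgRNA, 27.1, 25.7 and 26.5 CPM with sgRNA 11, and 28.7, 30.7 and 30.0 CPM with sgRNA 15. It rose with sgRNA 15 (0.31 ± 0.06, edgeR adjusted p = 1.74e-05), and its value with sgRNA 11 missed the threshold (0.14 ± 0.06, edgeR adjusted p = 0.0561). That value passed in 6 of 18 alternatives, among them the GC content and length correction (0.15, edgeR adjusted p = 0.0293) and scaling by library size only (0.17, edgeR adjusted p = 0.0168), and without sgRNA 11 replicate 2 (0.16, edgeR adjusted p = 0.0486) or sgRNA 15 replicate 1 (0.14, edgeR adjusted p = 0.0458).

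The guides were also compared directly. With sgRNA 15 against sgRNA 11, 13 of the 40 genes were higher and 4 lower, which is 42.5% beside 33.5% of all genes tested (18% higher and 15.5% lower). Among the tested genes with a mean of at least 5 CPM, 42.3% passed. All sgRNA 15 libraries lay above all sgRNA 11 libraries for 17 of the genes and below them for 3, beside 22.8% and 20% of all genes tested. With the GC content and length correction the split was 9 higher and 1 lower, and 1 gene was lower without sgRNA 11 replicate 3 or without sgRNA 15 replicate 2. In this comparison, 5 of the 17 calls were kept in all 18 alternatives run, those of Stam2, Vps37a, Chmp2b, Lgals3 and Lgals8. Against safe sgRNA the same holds for 15 of 22 calls with sgRNA 11 and 18 of 23 with sgRNA 15. Vps37a was higher with sgRNA 15 by 0.28 ± 0.06 (edgeR adjusted p = 9.72e-05) and Chmp2b by 0.24 ± 0.05 (edgeR adjusted p = 6.61e-05), each with all sgRNA 15 libraries above all sgRNA 11 libraries.

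Genes outside the list but in the same processes were taken from 5 lists of 89 genes in all, of which 78 were tested. Over all genes tested, 33.3% rose and 32.4% fell with sgRNA 11, and 32.2% rose and 30.7% fell with sgRNA 15. One list was drawn up for the attachment of ATG8 proteins to single membranes, a response of stressed lysosomes. It is mixed. It holds genes that ordinary autophagy also uses, such as Atg5, Atg7 and Rb1cc1, and ATG8 genes themselves, such as Map1lc3a and Gabarap. Others in it, such as Lrrk2, Rab10 and Flcn, do not encode attachment enzymes. Of its 20 genes, 13 rose and 2 fell with sgRNA 11, and 14 rose and 4 fell with sgRNA 15. Genes of lysophagy, the removal of damaged lysosomes by autophagy, split evenly, with 5 of 13 risen and 5 fallen with each guide. That is 38.5% in each direction, near the shares over all genes. Of 26 genes of lipid transfer, PI4P turnover, annexins and sphingomyelinase, 11 rose and 8 fell with sgRNA 11, and 14 rose and 4 fell with sgRNA 15. Of 18 other ESCRT genes, 8 rose and 4 fell with sgRNA 11, and 6 rose and 4 fell with sgRNA 15. Without sgRNA 11 replicate 3, 5 other ESCRT genes rose with sgRNA 11. The median log2 fold change was 0.21 and 0.29 for ATG8 attachment, -0.05 and 0.03 for lysophagy, 0.03 and 0.16 for lipid transfer and 0.10 and 0.07 for other ESCRT genes, beside 0.01 over all genes tested. The number of ATG8 attachment genes that fell with sgRNA 15 was 2 without safe replicate 2, without sgRNA 15 replicate 1 or without sgRNA 15 replicate 2.

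**Figure D4:**
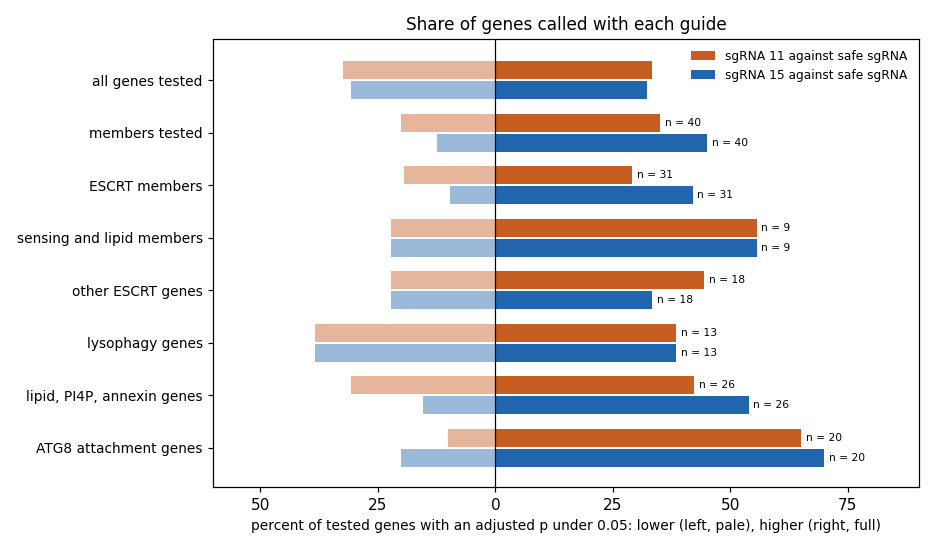
Percent of tested genes that passed an adjusted p of 0.05, lower to the left and higher to the right, for all genes tested, for the 40 tested genes and their main groups, and for 4 lists of related genes; n is the number tested. The ATG8 attachment list, which also holds ATG8 genes and genes of ordinary autophagy, has the largest shares of risen genes among these lists (65 and 70%). Over all genes they are 33.3 and 32.2%.

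In the lysophagy list, the 3 genes named by size of change encode autophagy receptors, and all 3 rose. The list also holds the receptor genes Tax1bp1, Calcoco2 and Nbr1, whose values are not given in the text. The 3 named genes therefore do not stand for receptors as a class. Sqstm1, which encodes p62, went from 337 ± 6.42 CPM (SD, n = 3) in the controls to 669 ± 2.40 and 870 ± 8.39 CPM with sgRNA 11 and sgRNA 15, log2 fold changes of 0.99 ± 0.02 (edgeR adjusted p = 1.18e-54) and 1.37 ± 0.02 (edgeR adjusted p = 3.6e-65). It is uncertain, because 17.3% of its exon length lies opposite Mrnip. Calcoco1, a receptor of the same family as NDP52, went from 24.6 ± 1.01 to 64.6 ± 2.62 and 60.3 ± 1.86 CPM (1.39 ± 0.05, edgeR adjusted p = 1.88e-40, and 1.30 ± 0.05, edgeR adjusted p = 9.35e-38). Optn, which encodes the receptor optineurin, went from 6.75 ± 0.243 to 9.70 ± 0.829 and 15.5 ± 0.936 CPM (0.51 ± 0.11, edgeR adjusted p = 1.77e-05, and 1.19 ± 0.10, edgeR adjusted p = 1.83e-18). Genes of the complex around the ATPase p97 that trims ubiquitin on damaged lysosomes did not move as 1. Vcp (-0.62 and -0.56), Plaa (-0.66 and -0.47) and Yod1 (-0.51 and -0.22) fell with both guides, and Ubxn6 (0.35 and 0.41) rose with both. Ubxn6 is uncertain, because 81.8% of its exon length lies opposite Chaf1a. These 4 genes were chosen after their values were seen.

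In the ATG8 attachment list, Tecpr1 had the largest change of the 20 genes with sgRNA 15. It encodes a sensor of sphingomyelin on damaged lysosomes that directs LC3 lipidation, and it went from 33.5 ± 1.02 to 53.1 ± 1.30 and 131 ± 5.19 CPM. The log2 fold change was 0.66 ± 0.05 with sgRNA 11 (edgeR adjusted p = 6.47e-22) and 1.96 ± 0.04 with sgRNA 15 (edgeR adjusted p = 1.33e-56), and the guides differed by 1.30 ± 0.04 (edgeR adjusted p = 6.35e-45). Map1lc3a, an LC3 gene, rose by 0.73 ± 0.09 (edgeR adjusted p = 2.34e-11) and 0.62 ± 0.09 (edgeR adjusted p = 9.84e-09). Atg10, which encodes the enzyme that joins ATG12 to ATG5, rose by 0.80 ± 0.17 (edgeR adjusted p = 2.28e-05) and 0.82 ± 0.17 (edgeR adjusted p = 1.78e-05) from a low level of 2.52 ± 0.241 CPM.

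**Figure D5:**
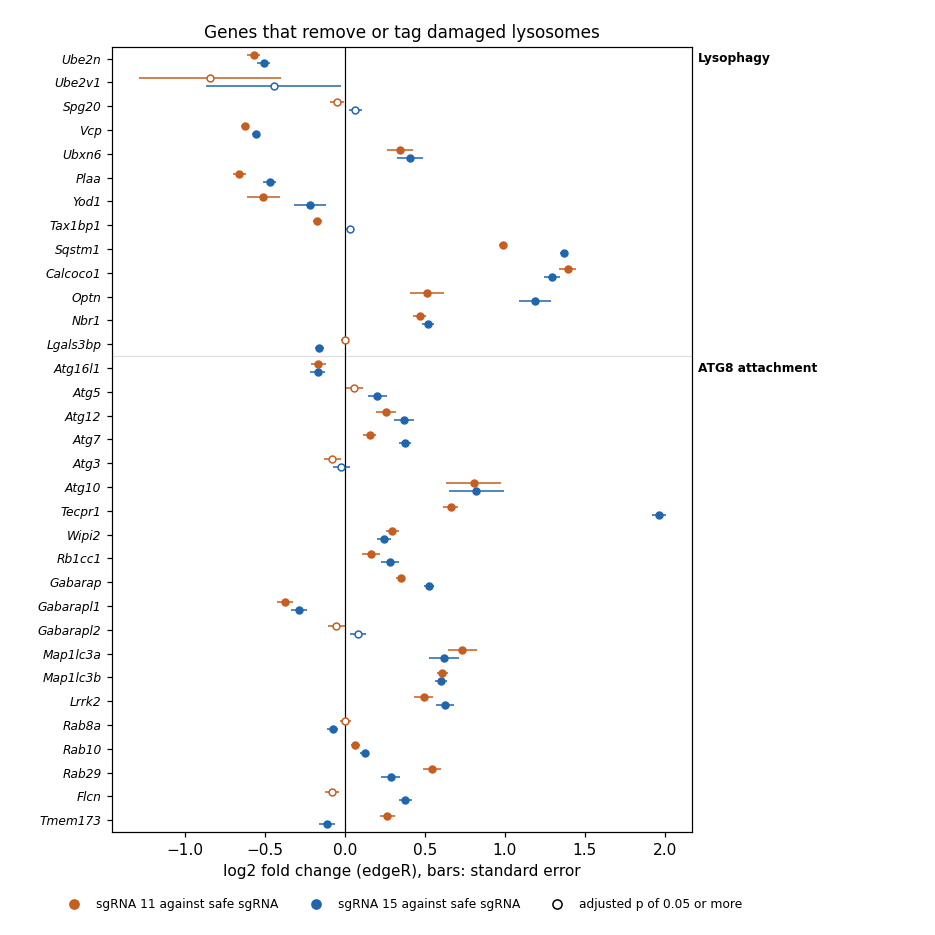
Log2 fold change against safe sgRNA of the tested genes for lysophagy and for attachment of ATG8 proteins to single membranes, with sgRNA 11 in orange and sgRNA 15 in blue. Bars are standard errors and open points did not pass an adjusted p of 0.05. Tecpr1 (1.96 with sgRNA 15), Calcoco1 (1.39 with sgRNA 11) and Sqstm1 (1.37 with sgRNA 15) lie farthest to the right, and Spg20 and Tmem173 are the annotation's symbols for Spart and Sting1.

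In the lipid transfer list, Osbpl2, a paralog of Osbpl9, rose by 0.78 ± 0.04 (edgeR adjusted p = 7.2e-31) and 0.74 ± 0.04 (edgeR adjusted p = 2.93e-29). Anxa4, which encodes the calcium- and lipid-binding annexin A4, rose by 0.13 ± 0.04 with sgRNA 11 (edgeR adjusted p = 0.00672) and 0.92 ± 0.04 with sgRNA 15 (edgeR adjusted p = 3.97e-35). The call of Anxa4 with sgRNA 11 was lost without safe replicate 3 (0.09, edgeR adjusted p = 0.0964) or sgRNA 11 replicate 3 (0.08, edgeR adjusted p = 0.142). Syt7, a calcium sensor of lysosome exocytosis, was below 1 CPM in each group mean, and its call with sgRNA 11 (-1.03 ± 0.44, edgeR adjusted p = 0.0349) was lost without safe replicate 1 (-0.88, edgeR adjusted p = 0.14), safe replicate 2 (-1.004, edgeR adjusted p = 0.0759) or sgRNA 11 replicate 1 (-0.75, edgeR adjusted p = 0.181), and with DESeq2 (DESeq2 adjusted p = 0.0866) or no filter (edgeR adjusted p = 0.0719).

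Among the other ESCRT genes, Cep55, which brings ALIX and TSG101 to the midbody in cell division, fell with both guides (-0.59 ± 0.04, edgeR adjusted p = 9.64e-22, and -0.32 ± 0.04, edgeR adjusted p = 3.09e-10). Gga2, a clathrin adaptor with a ubiquitin-binding domain, fell with sgRNA 11 (-0.47 ± 0.04, edgeR adjusted p = 4.27e-16) and did not pass with sgRNA 15 (0.08 ± 0.04, edgeR adjusted p = 0.0929), where scaling by library size only gave a rise that passed (0.12, edgeR adjusted p = 0.0116), as did a minimum mean of 5 CPM (0.09, edgeR adjusted p = 0.045). Arrdc1, an arrestin-related adaptor that recruits TSG101 to the plasma membrane, rose with sgRNA 11 (0.40 ± 0.05, edgeR adjusted p = 5.4e-11) and did not pass with sgRNA 15 (0.06 ± 0.05, edgeR adjusted p = 0.326). The direct tests of the guides passed for Cep55 (0.27 ± 0.04, edgeR adjusted p = 4.04e-07), Gga2 (0.55 ± 0.04, edgeR adjusted p = 9.75e-19) and Arrdc1 (-0.34 ± 0.05, edgeR adjusted p = 3.47e-08).

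Of 4 further galectin genes, 1 was tested. Lgals4, which encodes galectin-4, had 3, 2 and 3 reads with safe sgRNA, 17, 14 and 20 reads with sgRNA 11, and 15, 12 and 7 reads with sgRNA 15. It passed the filter on low counts through the guide libraries, so its test is not reported. Its mean level was 0.128 ± 0.0312 CPM (SD, n = 3) in the controls and 0.812 ± 0.0834 and 0.551 ± 0.155 CPM with sgRNA 11 and sgRNA 15, far below the 4 galectin genes above.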

How the data were processed

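Deposited values are raw read counts for each gene. Per the submitters' processing notes, the authors used STAR, HTSeq and the mm10 build; tool versions, gene models, strand handling and the counting rule have no entry in the labels. The 5 tally lines for reads in no gene stayed out of library sizes and tests, and 19.3 to 20.7% of the reads of each table stood there. Symbols, exon lengths and overlaps came from GENCODE M21. Genes were kept by filterByExpr (minimum count 10) and scaled by TMM. The quasi-likelihood test of edgeR 4.0.16 in R 4.3.3 was fitted to all 9 libraries (6 residual degrees of freedom), 2-sided, with Benjamini-Hochberg adjustment over all 13453 genes tested within each of 3 comparisons. CPM values are TMM-scaled. Genes sharing at least 10% of exon length with another gene are called uncertain.

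The genes described and the related lists were chosen with earlier results of these data known. In each role, values per library are given for up to 3 called genes with the largest change and for the gene with the highest level per length. From each related list up to 3 genes are named by size; Vcp, Plaa, Yod1 and Ubxn6 are exceptions. Alternatives were DESeq2 1.42.0, limma-voom (limma 3.58.1), other scalings and filters, a GC content and length correction, a replicate block, a fit restricted to the compared groups, and each library left out. On simulated data over 13268 genes, made for sgRNA 11 against safe sgRNA, the test recovered 77.6% of genes changed 1.2-fold and 100% of those changed 1.5-fold and 2-fold, and called 8 of 13068 unchanged genes. Only 67, 67 and 66 genes were changed by these folds, all with a mean of at least 5 CPM. In the data 65.8% of genes passed in this comparison, so the simulated rates need not hold for the data.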

Additional observations from a re-analysis of the deposited data

Results flagged for a closer look

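For 17 of the 40 genes the direct test of sgRNA 15 against sgRNA 11 passed, and 5 of these calls were kept in all 18 alternatives run. That is 42.5% of the genes, beside 33.5% of all genes tested and 42.3% of those with a mean of at least 5 CPM. The test compares the libraries labelled with each guide, and a difference between guides cannot be told apart from one between the cultures or clones that carry them. Those higher with sgRNA 15 were Lgals8 (log2 difference 0.52), Lgals3 (0.46), Stam2 (0.35), Vps37a (0.28), Chmp2b (0.24), Chmp1b (0.21), Stambp (0.17), Chmp5 (0.17), Ptpn23 (0.16), Tsg101 (0.14), Vps4b (0.14), Vps36 (0.13) and Lgals1 (0.082). Those lower were Vps37b (-0.30), Mvb12b (-0.14), Vps28 (-0.12) and Lgals9 (-0.11). For Stam2, Vps37a, Ptpn23 and Chmp2b, the values with sgRNA 11 were called lower than safe sgRNA, while with sgRNA 15 Chmp2b was called higher and the other 3 were not called.

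Leaving out 1 library ended several of these calls, named here with the log2 difference that remained. Without sgRNA 11 replicate 1 these were Lgals1 (0.05) and Lgals9 (-0.11), and without sgRNA 11 replicate 2 they were Tsg101 (0.09), Chmp1b (0.17), Chmp5 (0.13) and Stambp (0.15). Without sgRNA 11 replicate 3 they were Vps28 (-0.09), Vps37b (-0.22), Chmp1b (0.15), Stambp (0.17) and Lgals9 (-0.11). Without sgRNA 15 replicate 1 they were Tsg101 (0.11) and Chmp1b (0.22). Without sgRNA 15 replicate 2 they were Vps28 (-0.10), Mvb12b (-0.09), Chmp1b (0.19), Chmp5 (0.13), Ptpn23 (0.11), Stambp (0.14) and Lgals9 (-0.11), and without sgRNA 15 replicate 3 they were Chmp1b (0.20), Stambp (0.17) and Lgals9 (-0.09). The GC content and length correction ended the calls of Tsg101 (0.09), Vps28 (-0.06), Mvb12b (-0.08), Vps36 (0.09), Chmp1b (0.13), Vps4b (0.05), Stambp (0.12) and Lgals9 (-0.07). DESeq2 ended those of Chmp1b (0.21), Stambp (0.17) and Lgals9 (-0.11). A fit without the filter on low counts ended those of Chmp1b and Stambp, and scaling by library size only ended that of Lgals9 (-0.10). The call of Chmp1b was kept in 10 of 18 alternatives, and those of Stambp and Lgals9 in 11 each.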

How the results depend on the processing

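Same-numbered libraries of different groups correlated at -0.0077 to 0.058 in their deviations from the group means, and other pairs at -0.072 to 0.041. Of the 9 libraries, 5 correlated best with their own number. Whether equal numbers mark libraries made together cannot be told from these values. With the replicate block the counts stayed at 14 higher and 8 lower with sgRNA 11, 18 and 5 with sgRNA 15, and 13 and 4 between the guides, and Vps4b with sgRNA 11 was 0.0013.

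Of 3281 values recomputed under the alternatives, 3057 were classed as the same. These values include counts of genes and medians, which have no adjusted p. For a log2 fold change, the same means that its direction and its side of the threshold were kept. The median of the 40 genes with sgRNA 11 was 0.056 when scaled by library size only, 0.048 at a minimum mean of 5 CPM and -0.0102 with the GC content and length correction, and -0.0032 to 0.042 with each library left out; it was negative without safe replicate 3. With sgRNA 15 it was 0.13 when scaled by library size only and 0.059 to 0.10 with each library left out. Between the guides it was 0.054 with the correction and 0.0027 to 0.039 with each library left out. With the correction, 8 genes fell with sgRNA 15, and 1 was lower between the guides, where leaving out libraries gave 1 to 4 (1 without sgRNA 11 replicate 3 or sgRNA 15 replicate 2). Related genes higher between the guides were 18 to 29, at 18 without sgRNA 11 replicate 2 and 19 without sgRNA 15 replicate 1. The causes were not tested.

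Values that changed sign were small before they did so. Scaling by library size only gave Vps37b 0.022, Vps4b 0.033 and Pi4k2a 0.019 with sgRNA 11, Vta1 0.012 and Pi4k2a 0.0059 with sgRNA 15, and Mvb12a 0.0034 between the guides. The correction gave Mvb12a -0.046, Vps4b 0.11 and Vps4a -0.017 with sgRNA 11 and Pdcd6ip -0.0104 with sgRNA 15. The value of Vps4b passed there (edgeR adjusted p = 0.000734). Between the guides it gave Mvb12a 0.064, Chmp4b 0.038, Vps4a 0.0183, Pdcd6ip -0.0298, Pi4k2a 0.0185, Chmp1a 0.0123 and Atg10 -0.053. No filter gave Vps4b 0.0091 with sgRNA 11, and a minimum of 5 CPM gave Vps37b 0.013, Vps4b 0.024 and Pi4k2a 0.0101 with sgRNA 11 and Pdcd6ip -0.00022 between the guides. The GC content and length correction covered 99.8% of the genes tested.

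With each library left out in turn, the log2 values of genes that changed sign ranged as follows. With sgRNA 11, Stam ran from -0.033 to 0.076, Vps37b from -0.11 to 0.052, Vps4b from -0.045 to 0.054, Vps4a from -0.017 to 0.043, Pdcd6ip from -0.00049 to 0.019, Osbpl11 from -0.0076 to 0.089 and Pi4k2a from -0.042 to 0.018. With sgRNA 15, Vta1 ran from -0.068 to 0.0198 and Vps4a from -0.029 to 0.028. Between the guides, Hgs ran from -0.0063 to 0.059, Mvb12a from -0.0303 to 0.017, Snf8 from -0.089 to 0.022, Vps4a from -0.033 to 0.011, Pdcd6ip from -0.0064 to 0.021, Osbpl10 from -0.025 to 0.11 and Atg10 from -0.056 to 0.099. With 3 libraries a group, changes of 1.2-fold were recovered less often than larger ones on simulated data, and a value that missed the threshold does not show equal levels.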
